A study of Homo sapiens with 30 samples.

Results

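Genes of 3 routes to cell death were followed through long exposure of 2 human glioblastoma lines, U87 and U251, to interferon-γ (IFN-γ): the death ligand TNFSF10 (TRAIL), the death receptors TNFRSF10A, TNFRSF10B and FAS, the initiator caspase CASP8, the inflammatory caspases CASP1 and CASP4, the necroptosis executioner MLKL and the pore former GSDMD. They were taken by symbol, 9 of the 61471 gene entries in the expression table of each line, and were chosen with earlier results of these data known. All 9 are in both tables. In U87 all 9 passed the filter on low values (a mean of at least 0.5 TPM, transcripts scaled to a common total per library, over the libraries of the line), and in U251 8 did, TNFRSF10A being at or near 0 there.

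Messenger RNA was sequenced in bulk from cultures that received no IFN-γ (Untreated), from cultures kept in IFN-γ, at 1 µg/mL by the labels, for 3, 14 or 28 days (D3, D14, D28), and from cultures given IFN-γ for 14 days and then none for 14 days (D28WO, the washout, counted below among the exposed libraries). Of the 30 labelled libraries 28 were used, 3 in each group except D3 and D14 of U87, which had 2 each, because a pair of U87 columns carries a single name and cannot be assigned. The labels and the study's methods disagree on the dose, which is lower in the methods, and on the day on which Untreated was collected, day 3 in the labels and the first day of the course in the methods. Either way Untreated was taken days before D14 and weeks before D28 and D28WO, so time in culture and exposure cannot be told apart in those comparisons. By the methods it was also taken before D3. By the study's methods the replicates are separate culture preparations. Both are established lines grown as monocultures, listed as commonly misidentified and not re-authenticated for the study, so neither brings the immune cells that supply IFN-γ and death ligands in a tumour. The tables hold TPM with no counts, so the depth behind each value is unknown, and a gene listed at 0 carries no upper limit. The tables were normalized separately, so U87 and U251 were tested each on its own.

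TRAIL binds the receptors TNFRSF10A (DR4) and TNFRSF10B (DR5), and FAS binds FAS ligand. The intracellular death domains of these receptors gather the adaptor FADD and procaspase-8, which starts apoptosis. Where caspase-8 is inactive, RIPK1 can instead engage RIPK3, which phosphorylates MLKL, and MLKL breaks the plasma membrane in necroptosis. Caspase-1, activated in inflammasomes, and caspase-4, activated by bacterial lipopolysaccharide in the cytosol, cut gasdermin D, whose released N-terminal piece opens pores in pyroptosis. IFN-γ acts through promoter sites named GAS (gamma-activated sites) and through IRF1, which binds interferon-stimulated response elements (ISRE), and many genes of these routes are known interferon targets. Messenger RNA levels say nothing of cleavage, phosphorylation or death, which were not measured here.

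The libraries were first set against their labels with IRF1. Against Untreated, IRF1 was higher by 1.74, 1.84 and 1.93 on the log2(TPM + 1) scale at D3, D28 and D28WO of U87, and by 2.04, 1.08, 2.08 and 2.13 at D3, D14, D28 and D28WO of U251, and all 7 passed the test. In the libraries labelled D14 of U87, however, IRF1 stood at 134 and 109.8 TPM against 130.1 to 136 TPM in Untreated (change −0.13, limma, adjusted p = 0.488). The libraries labelled D14 of U87 therefore lacked the rise of IRF1, while those labelled D28WO, 14 days after withdrawal, did not differ from D28 in IRF1 in either line at the threshold. Whether labels were exchanged was not tested. D14 and D28WO of U87 stand below for the libraries so labelled, and each value for D14 of U87 rests wholly on those 2 libraries. With only the 2 groups compared in the fit, and so without D14, the members called higher against Untreated in U87 numbered 5 at D3, 6 at D28 and 6 at D28WO.

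Libraries of a group correlated with each other at Pearson's r of 0.9588 to 0.9736 over genes. Genes above 0 TPM numbered 24223 to 25459 in Untreated and 26096 to 28649 in the other U87 groups, and 24450 to 27187 in Untreated and 25633 to 30246 in the others of U251. Summed TPM of 7 glioma markers (VIM, NES, CD44, SOX2, S100B, GFAP, OLIG2) was 1944.8 to 2171.4 in Untreated, 1761.9 to 1806.9 at D3, 1844.2 to 1934.6 at D14, 1807.4 to 1948.7 at D28 and 1516.9 to 1666.2 at D28WO of U87. Of 6 tested there, 1 was lower at D3, 2 (GFAP and S100B) were higher and 0 lower at D28, and VIM, NES and CD44 were lower and GFAP and OLIG2 higher at D28WO (4.84 to 14.2 and 7.16 to 26.7 mean TPM from Untreated). Of all tested genes of U87, 4.28%, 6.55% and 13.4% were lower at D3, D28 and D28WO, and 17.2% and 28.6% were higher at D28 and D28WO. In U251 the summed TPM of these markers was 3703.4 to 3774.8 in Untreated, 1488.7 to 1825.2 at D3, 2577.8 to 2971.4 at D14, 1617.3 to 1835.5 at D28 and 2108.1 to 2178.5 at D28WO. There 6, 5, 6 and 5 of 6 tested markers were lower at D3, D14, D28 and D28WO, where 16.0%, 7.31%, 14.7% and 13.4% of all tested genes were. OLIG2 was at 0 in all Untreated libraries of U251. Markers of other cells (PTPRC, CD3E, CD14, AIF1, PECAM1, EPCAM) summed in U87 to 5.12 to 11.3 TPM in Untreated, 3.82 to 10.9 at D3, D14 and D28 and 2.37 to 3.67 at D28WO, and in U251 to 0.627 to 2.56 TPM in Untreated, 6.36 to 7.13 at D3, 3.00 to 4.14 at D14, 5.02 to 7.75 at D28 and 3.02 to 4.29 at D28WO. EPCAM of U87 was lower at D28WO than in Untreated (−1.64, limma, adjusted p = 0.00255), and CD14 of U251 was higher in all 4 groups (1.85, 1.07, 1.48 and 1.12, adjusted p = 0.000131, 0.0146, 0.000824 and 0.00824), from 0.569 TPM in Untreated to 4.51 at D3. Of the 6 markers, at most 3 were at 0 throughout a group. The part of these shifts in the results below was not tested.

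Before IFN-γ, TNFRSF10B was the most abundant member in U87 and GSDMD in U251. By mean TPM, a measure per transcript length, the order in Untreated U87 was TNFRSF10B (117), CASP4 (92.1), GSDMD (66.4), FAS (65.5), CASP8 (57.0), MLKL (35.7), CASP1 (18.4), TNFRSF10A (5.65) and TNFSF10 (0.814), and of these neighbours only GSDMD and FAS overlapped in their libraries. In Untreated U251 it was GSDMD (138), CASP4 (104), TNFRSF10B (80.4), FAS (80.0), TNFSF10 (47.2), CASP1 (34.1), CASP8 (28.3), MLKL (14.4) and TNFRSF10A (0.0412), where TNFRSF10B overlapped with FAS, and CASP1 with CASP8. The plot of TPM by library shows these levels and their course.

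**Figure D1:**
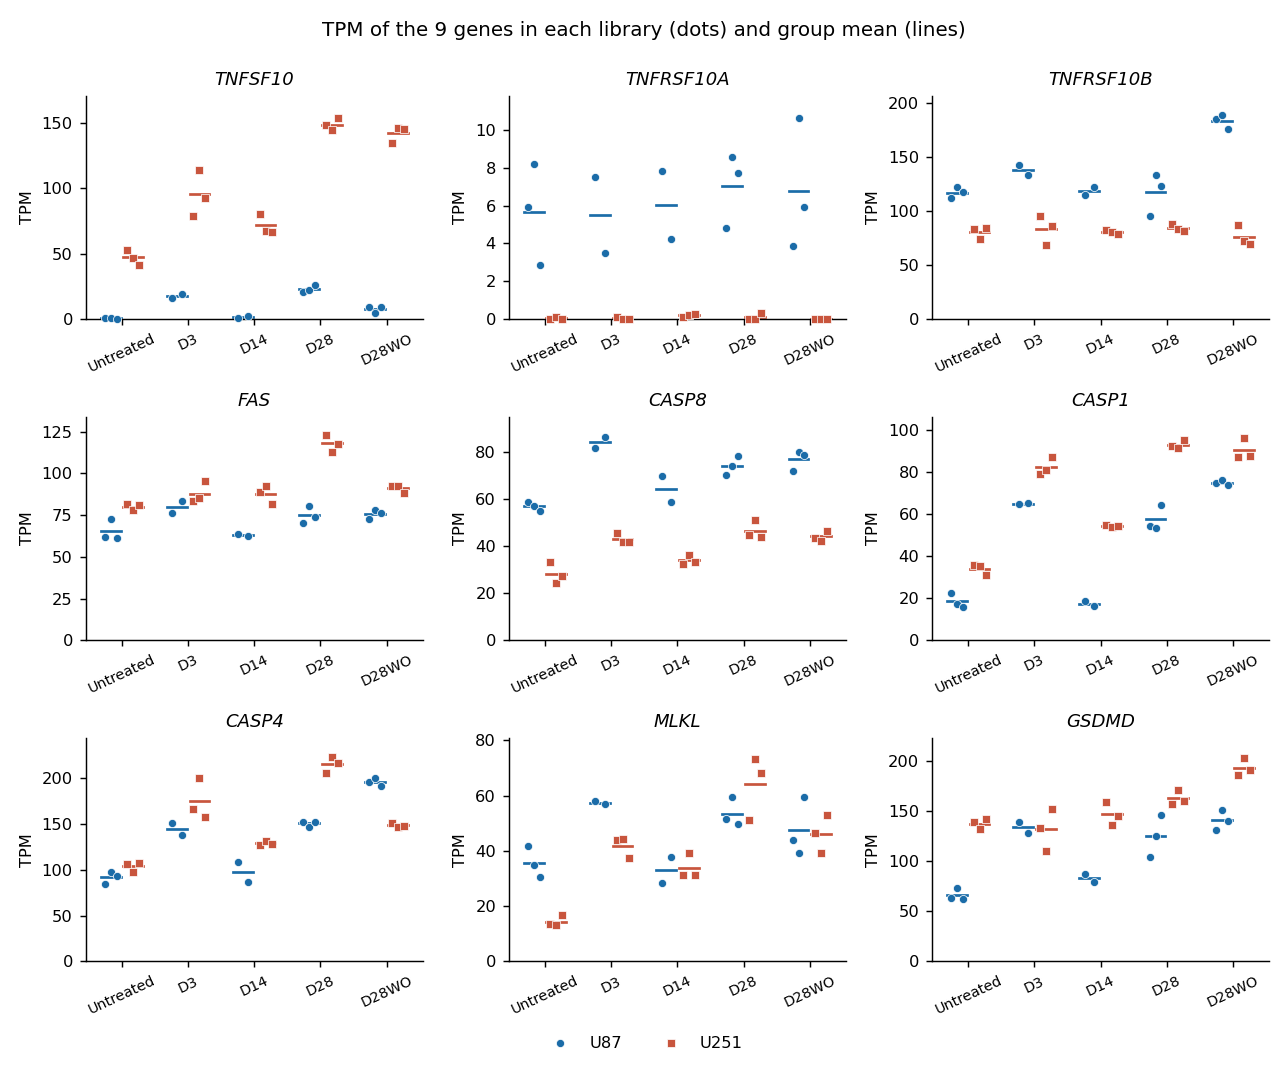
TPM of the 9 genes (vertical axes, 1 panel a gene) in each library of U87 (blue circles) and U251 (red squares) over Untreated, D3, D14, D28 and D28WO, with short lines at the group means. In U87, CASP1 falls from 64.9 TPM at D3 to 17.4 at D14 and is back at 57.4 at D28, and in U251 MLKL climbs from 14.4 TPM in Untreated to 64.1 at D28.

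Against Untreated, 6 of 9 genes rose at D3, D28 and D28WO of U87 and none at D14, 4 to 7 of 8 rose in the groups of U251, and none was called lower in either line. A gene passed where limma's adjusted p over all genes tested in the line was under 0.05. Over D3, D14, D28 and D28WO in that order, 6, 0, 6 and 6 of 9 rose in U87, where 12.4%, 4.14%, 17.2% and 28.6% of all 22918 tested genes rose. In U251 5, 4, 6 and 7 of 8 rose, where 24.9%, 13.8%, 25.9% and 14.3% of 23667 genes rose. Lower calls, none of them a member, made up 4.28%, 1.02%, 6.55% and 13.4% of genes in U87 and 16.0%, 7.31%, 14.7% and 13.4% in U251. With the added limit of a log2 change over 1, as the study used, 3, 0, 2 and 4 members were higher in U87, where 5.85%, 1.89%, 6.77% and 12.8% of genes were, and 2, 1, 4 and 3 in U251, where 9.72%, 4.72%, 11.9% and 4.07% were. The median change of the members was 0.65, 0.08, 0.58 and 0.64 (log2) in U87 and 0.67, 0.29, 0.88 and 0.58 in U251. Every library of a group lay above every Untreated one for 8, 3, 6 and 6 members in U87, where that held for 34.3%, 29.5%, 26.0% and 36.6% of all tested genes, and for 6, 5, 7 and 7 in U251, where it held for 29.5%, 23.7%, 32.7% and 21.4%. Bulk RNA cannot tell more RNA per cell from a larger share of cells with the transcript.

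TPM depends on everything else in a library, and the median of all tested genes against Untreated was itself 0.20, 0.15, 0.19 and 0.25 in U87 and 0.13, 0.096, 0.16 and 0.015 in U251. It lay between −0.026 and −0.0063 in U87 after quantile normalization. Relative to the median of all genes, the changes that passed ranged from 0.18 (CASP8 at D28WO) to 3.56 (TNFSF10 at D28) in U87 and from 0.17 (FAS at D28WO) to 1.91 (MLKL at D28) in U251. Of all genes called against Untreated, 68.2% to 80.2% were higher in U87 and 51.5% to 65.4% in U251. These shares became 45.5% to 55.3% and 47.7% to 50.2% with quantile normalization, and 46.7% to 57.6% and 47.5% to 51.9% with median-ratio size factors.

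**Figure D2:**
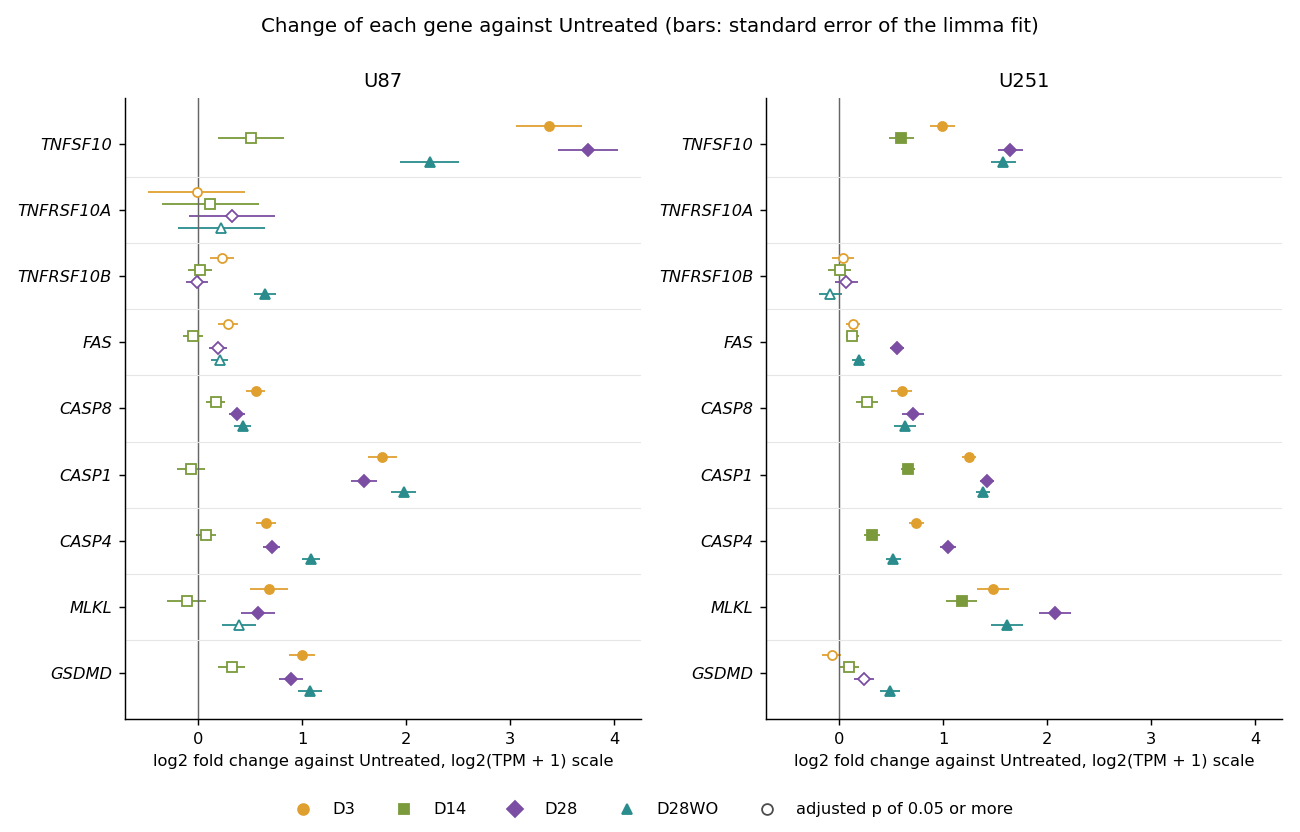
Change of each gene (vertical axis) against Untreated on the log2(TPM + 1) scale (horizontal axis) in U87 (left) and U251 (right), with circles for D3, squares for D14, diamonds for D28, triangles for D28WO and bars for the standard error. Filled symbols passed (adjusted p under 0.05) and open ones did not. All 9 symbols of U87 at D14 are open, TNFRSF10A has none in U251, where it was not tested, and TNFSF10 of U87 reaches 3.75 at D28.

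The death ligand TNFSF10 (GRCh38 chr3:172505508-172523475, minus strand) made the largest rise among the members in U87. Its levels there were 0.956, 1.07 and 0.420 TPM in Untreated, 16.1 and 19.3 at D3, 1.09 and 2.12 at D14, 21.0, 22.2 and 26.4 at D28, and 9.25, 4.44 and 9.56 at D28WO. Every exposed library lay above every Untreated one, narrowly so at D14, and D28WO lay between Untreated and D28. The gene rose by 3.38 ± 0.32 (log2, SE), 3.75 ± 0.28 and 2.23 ± 0.28 at D3, D28 and D28WO (limma, Benjamini-Hochberg adjusted p = 3.36e-05, 3.62e-06 and 9.03e-05), and its change at D14 was 0.51 ± 0.32 (adjusted p = 0.366). D14 was lower than D3 by a log2 change of −2.86 (adjusted p = 0.000498), D28 was higher than D14 by 3.24 (7.9e-05), and D28WO was lower than D28 by −1.52 (0.0037).

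U251 carried TNFSF10 before any IFN-γ, at 53.1, 46.9 and 41.5 TPM. It stood at 79.0, 114 and 93.0 TPM at D3, 80.5, 67.5 and 67.0 at D14, 149, 145 and 154 at D28, and 135, 146 and 145 at D28WO. All 4 groups lay wholly above Untreated. The D3 and D14 libraries overlapped, and so did those of D28 and D28WO. The changes of 0.99, 0.60, 1.64 and 1.58 (each SE 0.12) passed at every group (limma, adjusted p = 1.68e-05, 0.00309, 1.17e-07 and 3.12e-07). The gene was higher at D28 than at D14 by 1.05 (adjusted p = 2.99e-05), and D28WO differed from D28 by −0.07 (adjusted p = 0.722). The lower level at D14 than at D3 (−0.40, adjusted p = 0.026) was lost without any one of D3 replicates 2 and 3 or D14 replicates 2 and 3, where the change ranged from −0.41 to −0.26.

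Start-site sequence is shown for the members in which an interferon element was found, TNFSF10 and CASP8, and for MLKL, which rose most in U251 and had none. RefSeq promoter entries (GRCh38.p14, 250 bases before to 50 after a start) matched 5 members with 9 entries. TNFRSF10A, TNFRSF10B, CASP1 and GSDMD had no entry and were not searched. Both strands were searched for GAS, spelled TTC, then NNN for any bases, then GAA, and for the ISRE core, spelled GAAA, then NN for any bases, then GAAA (TTTC, NN and TTTC on the other strand). Of 35116 promoters, 7.66% held the GAS and 3.57% the ISRE core. Of the 9 member entries, 1 held a GAS and 2 an ISRE core. The GAS of CASP8 is at chr2:201233263-201233271 and its ISRE core at chr2:201233460-201233469, and they do not overlap. The ISRE core lies past the start of CASP8 in GENCODE (201233443). The ISRE core of TNFSF10 is at chr3:172523608-172523617. The entries of FAS, CASP4 and MLKL held no exact match to either pattern in these windows, and near matches were not searched. The runs below read 5′ to 3′ on the strand of the gene, cover chr3:172523476-172523680 (minus), chr2:201233213-201233469 (plus) and chr16:74700961-74701112 (minus), and carry matches in capitals.
TNFSF10: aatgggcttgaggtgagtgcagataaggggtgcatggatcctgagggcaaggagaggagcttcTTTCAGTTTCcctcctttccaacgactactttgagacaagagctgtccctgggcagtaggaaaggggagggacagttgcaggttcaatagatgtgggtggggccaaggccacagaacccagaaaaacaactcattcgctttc
CASP8: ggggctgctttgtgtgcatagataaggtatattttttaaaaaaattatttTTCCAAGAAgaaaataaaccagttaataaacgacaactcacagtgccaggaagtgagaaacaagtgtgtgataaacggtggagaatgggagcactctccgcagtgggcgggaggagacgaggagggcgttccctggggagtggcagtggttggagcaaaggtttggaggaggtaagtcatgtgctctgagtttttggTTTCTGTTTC
MLKL: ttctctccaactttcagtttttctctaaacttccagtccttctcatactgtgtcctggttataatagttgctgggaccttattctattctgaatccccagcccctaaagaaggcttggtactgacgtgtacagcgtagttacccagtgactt

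Of the death receptors of TRAIL, TNFRSF10A and TNFRSF10B, one change passed against Untreated, that of TNFRSF10B at D28WO of U87. TNFRSF10A (chr8:23190452-23225102, minus) stood at 2.84 to 10.6 TPM over the 13 U87 libraries and its groups overlapped throughout. Its changes against Untreated were −0.01, 0.12, 0.33 and 0.22 (SE 0.42 to 0.47), and none passed (limma, adjusted p = 1, 0.924, 0.606 and 0.698). In U251 it was listed at 0 in 9 of 15 libraries, reached 0.313 TPM at most and was not tested. Exons of 2 lncRNAs on the opposite strand, TNFRSF10A-AS1 and TNFRSF10A-DT, cover 7.65% and 9.09% of its exonic bases, and no source used here says that counting used strand.

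TNFRSF10B (chr8:23020133-23069031, minus) was the most abundant member in Untreated U87, and in that line it stood apart at the washout. Its libraries held 112, 122 and 117 TPM in Untreated, 142 and 133 at D3, 115 and 122 at D14, 95.4, 133 and 123 at D28, and 185, 189 and 175 at D28WO. Every washout library lay above all others of the line. The gene rose at D28WO by 0.64 ± 0.10 against Untreated, 0.65 ± 0.10 against D28 and 0.62 ± 0.12 against D14 (limma, adjusted p = 0.000453, 0.00151 and 0.00227), with 0.23 at D3 (0.194), 0.02 at D14 (0.949) and −0.01 at D28 (0.977) against Untreated. In U251 its libraries ranged from 68.2 to 95.1 TPM, the groups overlapped, and its changes of 0.04, 0.01, 0.07 and −0.09 did not pass (adjusted p = 0.824, 0.994, 0.664 and 0.633). The first 3 turned negative with median-ratio size factors. RHOBTB2, on the opposite strand, shares 7.52% of its exonic bases.

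The decoy receptors of TRAIL, which bind it without a working death domain, lie between TNFRSF10B and TNFRSF10A on chromosome 8. TNFRSF10D (DcR2) held 111, 109 and 118 TPM in Untreated U87, 47.2 and 56.5 at D3, 78.4 and 84.1 at D14, 37.2, 45.0 and 35.4 at D28, and 35.2, 29.5 and 33.7 at D28WO. Each exposed library lay under every Untreated one, and the changes of −1.11, −0.47, −1.51 and −1.75 all passed (limma, adjusted p = 0.000111, 0.0472, 2.42e-06 and 4.3e-07). In U251 TNFRSF10D did not exceed 0.280 TPM. TNFRSF10C (DcR1) rose in U251 by 1.39 at D3 and 0.82 at D28WO (adjusted p = 0.000123 and 0.00931), from 1.46 to 1.84 TPM in Untreated to 5.16 to 7.13 and 3.47 to 3.88 TPM, and none of its changes against Untreated passed in U87. The 4 receptor genes are close relatives, and how the counting treated reads that fit more than one of them was not given in the sources used here.

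FAS (chr10:88953813-89029605, plus) rose at D28 of U251. There it held 81.4, 77.8 and 80.8 TPM in Untreated, 83.2, 85.2 and 95.2 at D3, 89.0, 92.2 and 81.5 at D14, 123, 113 and 118 at D28, and 92.1, 92.7 and 88.5 at D28WO. All D28 libraries lay above every other library of the line. The gene rose by 0.55 ± 0.065 at D28 against Untreated and by 0.43 against D14, and was lower at D28WO than at D28 by −0.37 (limma, adjusted p = 1.16e-05, 0.000314 and 0.000762). The 0.19 at D28WO against Untreated passed narrowly (0.0461) and was lost in each of the 6 fits that left out 1 library of the 2 groups, with values of 0.17 to 0.21.

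In U87 FAS held 62.1, 72.9 and 61.5 TPM in Untreated, 76.4 and 83.5 at D3, 63.8 and 62.4 at D14, 70.4, 80.6 and 73.8 at D28, and 72.9, 78.0 and 76.2 at D28WO. Its changes of 0.29, −0.05, 0.19 and 0.21 did not pass (limma, adjusted p = 0.0571, 0.808, 0.12 and 0.0652). Without Untreated replicate 2, the highest of its group, D3, D28 and D28WO passed with 0.36, 0.27 and 0.29 (adjusted p = 0.0213, 0.0383 and 0.0176). The D28WO change was −0.03 with median-ratio size factors. FASLG, its ligand, was listed at 0 in 12 of 13 U87 and 14 of 15 U251 libraries. Exons of ACTA2 and of the lncRNA ENSG00000286116 on the opposite strand cover 1.32% and 6.48% of the exonic bases of FAS, and those of STAMBPL1 on the same strand cover 0.566%.

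CASP8 (chr2:201233443-201361836, plus), the initiator caspase under these receptors and the brake on necroptosis, rose in both lines at D3, D28 and D28WO. In U87 it held 58.7, 57.0 and 55.2 TPM in Untreated, 82.0 and 86.6 at D3, 69.9 and 58.8 at D14, 70.3, 74.1 and 78.3 at D28, and 72.2, 80.3 and 78.8 at D28WO. No exposed library fell to the Untreated range. The changes were 0.56 ± 0.091, 0.17 ± 0.091, 0.38 ± 0.082 and 0.43 ± 0.082 (limma, adjusted p = 0.00215, 0.296, 0.00746 and 0.00138). With median-ratio size factors D28 and D28WO gave 0.18 and 0.20 and did not pass (adjusted p = 0.197 and 0.136), and with quantile normalization D28 gave 0.26 (0.0564).

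In U251 CASP8 held 33.2, 24.4 and 27.4 TPM in Untreated, 45.8, 41.8 and 41.8 at D3, 32.4, 36.4 and 33.4 at D14, 44.8, 51.2 and 43.9 at D28, and 43.6, 42.5 and 46.7 at D28WO. D14 overlapped with Untreated, and the other 3 groups lay above it. The rises were 0.60, 0.71 and 0.64 at D3, D28 and D28WO (each SE 0.10, limma adjusted p = 0.000402, 0.000101 and 0.000402), and the change at D14 was 0.27 (0.0868), which passed as 0.38 without Untreated replicate 1 (0.0154). D28 was higher than D14 by 0.44 (0.00833) and did not differ from D28WO at the threshold (−0.07, 0.656). The lncRNA ENSG00000289698 on the same strand covers 4.74% of the exonic bases of CASP8.

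CASP8 lies beside CASP10, its closest relative, and CFLAR, which encodes the inhibitor c-FLIP, on chromosome 2, and all 3 were higher at D28 and D28WO. CASP10 averaged 10.6 TPM in Untreated U87 and rose by 1.00, 0.83 and 1.21 at D3, D28 and D28WO (limma, adjusted p = 0.00177, 0.00196 and 4.94e-05). In U251 it went from at most 0.509 TPM to 4.60 to 5.38 TPM at D28, a rise of 2.17 (8.93e-06), and was lower at D28WO than at D28 by −1.34 (0.00108). CFLAR rose by 0.32 and 0.43 at D28 and D28WO of U87 (0.00208 and 0.000105) and by 0.40 and 0.36 in U251 (0.00532 and 0.013). The adaptor FADD did not rise, and was lower at D28WO of U87 (−0.25, 0.019) and at D3 of U251 (−0.21, 0.0198).

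CASP1 (chr11:105025397-105035250, minus), the inflammasome protease that matures IL-1β and IL-18, rose in both lines. In U87 it held 22.3, 17.2 and 15.9 TPM in Untreated, 64.6 and 65.1 at D3, 18.5 and 16.4 at D14, 54.4, 53.4 and 64.5 at D28, and 75.0, 76.1 and 73.8 at D28WO. D14 lay inside the Untreated range and the other groups lay far above it. The changes were 1.77 ± 0.14, −0.07 ± 0.14, 1.60 ± 0.12 and 1.98 ± 0.12 (limma, adjusted p = 5.58e-06, 0.818, 3.6e-06 and 4.2e-07). D28WO was above D28 by 0.38, a call (0.0464) that was lost without any one of D28 replicates 1 and 2 and the 3 D28WO replicates (0.34 to 0.40).

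In U251 CASP1 held 35.8, 35.3 and 31.2 TPM in Untreated, 79.2, 80.7 and 87.04 at D3, 54.9, 53.7 and 54.5 at D14, 92.4, 91.2 and 95.2 at D28, and 87.3, 96.2 and 87.5 at D28WO. Here D14 lay between Untreated and the other groups with no overlap. The rises were 1.25, 0.66, 1.42 and 1.38 (each SE 0.066, limma adjusted p = 5.49e-09, 1.28e-05, 1.3e-09 and 2.72e-09). D14 was lower than D3 by −0.59 (2.49e-05) and D28 higher than D14 by 0.76 (2.68e-06), while D28WO differed from D28 by −0.04 (0.685).

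CASP4 (chr11:104942866-104969366, minus), the sensor of cytosolic lipopolysaccharide, rose at D3, D28 and D28WO in both lines. In U87 it held 84.6, 97.9 and 93.8 TPM in Untreated, 152 and 138 at D3, 109 and 86.7 at D14, 153, 147 and 152 at D28, and 196, 200.02 and 192 at D28WO, so that every washout library lay above every D28 one. The rises were 0.65 ± 0.095, 0.71 ± 0.085 and 1.08 ± 0.085 at D3, D28 and D28WO (limma, adjusted p = 0.00103, 0.000178 and 2.79e-06), and D14 was at 0.08 (0.671). D28WO exceeded D28 by 0.38 (0.0102), or by 0.33 with median-ratio size factors, where the call was lost (0.0619).

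In U251 CASP4 held 107, 97.5 and 107 TPM in Untreated, 166, 200.1 and 158 at D3, 127, 132 and 128 at D14, 206, 223 and 217 at D28, and 152, 147 and 148 at D28WO. All exposed libraries lay above Untreated, and every washout library lay below every D28 one. The rises were 0.74, 0.32, 1.05 and 0.52 (each SE 0.074, limma adjusted p = 2.81e-06, 0.008, 8.71e-08 and 0.000122), and D28WO was lower than D28 by −0.53 (0.000135). The D14 call was lost with median-ratio size factors (0.22, adjusted p = 0.0807).

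CARD16 and CASP5, neighbours of these caspases on chromosome 11, stood above Untreated in some groups of each line. The related CASP12, CARD17P and CARD18 did not exceed 0.615, 0.238 and 0.275 TPM in either line and were not tested. CARD16, which encodes a caspase recruitment domain close to that of CASP1, rose by 1.00, 1.19 and 1.46 at D3, D28 and D28WO of U87 (limma, adjusted p = 0.000692, 5.7e-05 and 4.76e-06) and by 0.88, 0.55, 1.02 and 1.05 in the 4 groups of U251 (2.03e-05, 0.00271, 4.85e-06 and 6.5e-06). CASP5, a relative of CASP4, was at 0 in 2 of 3 Untreated libraries of each line. It held 0.982 to 1.78 TPM at D28 and 17.0 to 21.4 TPM at D28WO of U87, a difference of 3.13 (adjusted p = 5.89e-05). In U251 it held 11.5 to 14.6 TPM at D3, 0.273 to 2.44 at D14, 7.82 to 9.54 at D28 and 3.58 to 9.86 at D28WO, and the 0.70 at D14 did not pass (0.211). CASP1, CARD16, CASP4 and CASP5 are similar in sequence and reads shared among them could be split, so the level of each is uncertain to that extent.

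MLKL (chr16:74671855-74700960, minus), the last step of necroptosis, showed the largest change among the members in U251. It held 13.5, 12.99 and 16.7 TPM in Untreated, 44.1, 44.2 and 37.5 at D3, 31.1, 39.1 and 31.2 at D14, 51.0, 73.2 and 68.0 at D28, and 46.5, 39.2 and 52.9 at D28WO. Every exposed library lay above every Untreated one. The rises were 1.48, 1.18, 2.07 and 1.61 (each SE 0.15, limma adjusted p = 3.95e-06, 0.000116, 1.38e-07 and 2.88e-06), and D28 was above D14 by 0.89 (0.000873). D28WO was below D28 by −0.46 (0.0381), a call lost without any one of D28 replicates 2 and 3 and D28WO replicates 1 and 2 (−0.47 to −0.35). It was also lost with quantile normalization (−0.43), median-ratio size factors (−0.37), no filter and only the 2 groups compared.

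In U87 MLKL passed at D3 and D28. It held 41.6, 34.9 and 30.5 TPM in Untreated, 58.0 and 56.9 at D3, 28.5 and 37.6 at D14, 51.4, 59.5 and 49.5 at D28, and 44.1, 39.2 and 59.5 at D28WO. The D3 and D28 libraries lay above Untreated, and the D28WO libraries overlapped with it. The changes were 0.68 ± 0.18, −0.11 ± 0.18, 0.58 ± 0.16 and 0.39 ± 0.16 (limma, adjusted p = 0.0267, 0.772, 0.0259 and 0.0727). The D3 call was lost without any one of Untreated replicates 2 and 3 or D3 replicates 2 and 3 (0.58 to 0.70), and with quantile normalization (0.47) or size factors (0.49). The D28 call was lost without any one of Untreated replicates 2 and 3 or D28 replicates 1 and 2 (0.47 to 0.60), and with quantile normalization (0.36) or size factors (0.39). D28WO passed as 0.51 without Untreated replicate 1 (0.0416) and 0.52 without D28WO replicate 2 (0.0355).

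RIPK3, the kinase that activates MLKL, was listed at 0 in all but 1 library of each line, the exceptions being 1.10 TPM in a D28 library of U87 and 0.120 TPM in a D14 library of U251, and was not tested. RIPK1 was present at 23.4 to 41.4 TPM in U87 and 49.5 to 63.3 TPM in U251. ZBP1, a sensor of Z-form nucleic acid that engages RIPK3, rose by 1.48 at D28 of U87 and by 2.06, 2.62 and 2.80 at D3, D28 and D28WO of U251 (limma, adjusted p = 0.0262, 0.00153, 0.000239 and 0.000219). TLR3, the endosomal receptor of double-stranded RNA, rose by 2.54 and 2.67 at D28 of U87 and U251 (5.58e-08 and 3.21e-09), and TICAM1 (TRIF), its adaptor, rose by 0.60 and 0.40 (0.00285 and 0.00082).

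GSDMD (chr8:143553207-143563062, plus), the pore former cut by caspase-1 and caspase-4, rose early in U87 and, in U251, passed at D28WO alone of the 4 groups. In U87 it held 63.6, 73.3 and 62.4 TPM in Untreated, 139 and 129 at D3, 86.9 and 79.6 at D14, 104, 126 and 146 at D28, and 131, 151 and 140.3 at D28WO. All exposed libraries lay above Untreated, with D14 the nearest. The changes were 1.00 ± 0.13, 0.32 ± 0.13, 0.90 ± 0.11 and 1.08 ± 0.11 (limma, adjusted p = 0.000371, 0.158, 0.000261 and 2.36e-05).

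In U251 GSDMD was the most abundant member before treatment, at 139, 132 and 142 TPM. It held 133, 110.4 and 152 TPM at D3, 159, 136 and 145 at D14, 157, 171 and 160.2 at D28, and 186, 203 and 190.4 at D28WO. The D28 and D28WO libraries lay above Untreated, and D28WO above every other library of the line. The rise at D28WO was 0.49 ± 0.095 (limma, adjusted p = 0.00147), against −0.07 (0.571), 0.09 (0.542) and 0.24 (0.0562) at D3, D14 and D28. The D28 change passed as 0.30 with quantile normalization (0.0242), 0.24 with only the 2 groups compared (0.0133) and 0.27 with array weights (0.0122). The lncRNA ENSG00000289161 on the opposite strand covers 2.67% of its exonic bases.

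Between successive groups, TNFSF10, CASP1 and CASP4 fell from D3 to D14 and rose from D14 to D28 in both lines. From D3 to D14, 6 of 9 members fell in U87 and 4 of 8 in U251, where 3.32% and 12.6% of all tested genes fell, and from D14 to D28, 4 and 6 rose, where 2.94% and 11.3% of genes rose. In U87 the fall was −1.84 for CASP1 (limma, adjusted p = 1.94e-05), −0.57 for CASP4 (0.00788), −0.68 for GSDMD (0.0162), −0.79 for MLKL (0.0447) and −0.39 for CASP8 (0.0487), beside that of TNFSF10. With 2 libraries on each side it was fragile. Leaving out 1 of the 4 libraries at a time left 2 to 4 of the 6 calls, GSDMD and MLKL being lost without any one of them, CASP8 without D3 replicate 2 or 3 or D14 replicate 3, and CASP4 without D3 replicate 2 or D14 replicate 3. In U251 the fall of TNFSF10 (−0.40, limma, adjusted p = 0.026) was lost without D3 replicate 2 or 3 or D14 replicate 2 or 3. It was also lost with no filter (0.0501) and with only the 2 groups compared (0.0997), and its D3 and D14 libraries overlapped. The fall of CASP8 in U251 (−0.33, 0.0315) was lost without D3 replicate 1 or 3 or D14 replicate 1 or 3. Leaving out 1 library at a time left 2 to 3 calls in U251 where the count moved.

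The rise from D14 to D28 in U87 was 1.66 for CASP1 (limma, adjusted p = 1.61e-05), 0.63 for CASP4 (0.00238) and 0.57 for GSDMD (0.0266), the last lost without D14 replicate 2 or 3 or D28 replicate 2 or 3 (0.46 to 0.63). With only the 2 groups compared, the calls of CASP4 and GSDMD were lost (0.0523 and 0.151). The 0.21 of CASP8 (0.274) and the 0.69 of MLKL (0.061) did not pass. After washout, D28WO differed from D28 in 4 members in U87. CASP1, CASP4 and TNFRSF10B were higher, where 9.90% of all genes were, and TNFSF10 was lower, where 8.44% were. In U251 3 members were lower, FAS, CASP4 and MLKL, where 18.8% of genes were, and none was higher, where 10.3% were. Among all genes that differed between D28WO and D28 of U251, 35.5% were higher, against 51.8% with quantile normalization and 48% with size factors. Compared with D14, the last group before withdrawal, 5 of 9 members in U87 and 4 of 8 in U251 were higher at D28WO, where 14.3% and 10.6% of genes were. Among these, the call of CASP8 in U251 (0.37, limma, adjusted p = 0.0181) was lost without D14 replicate 1 or 3 or D28WO replicate 3. With the added limit of 1, the U87 counts were 2 lower from D3 to D14, 2 higher from D14 to D28, 0 higher and 1 lower at D28WO against D28 and 3 higher against D14, where 2.05%, 1.78%, 3.11%, 2.42% and 6.30% of genes were. Those of U251 were 0, 1, 0, 0 and 0, where 3.29%, 4.23%, 1.12%, 8.14% and 1.78% were.

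**Figure D3:**
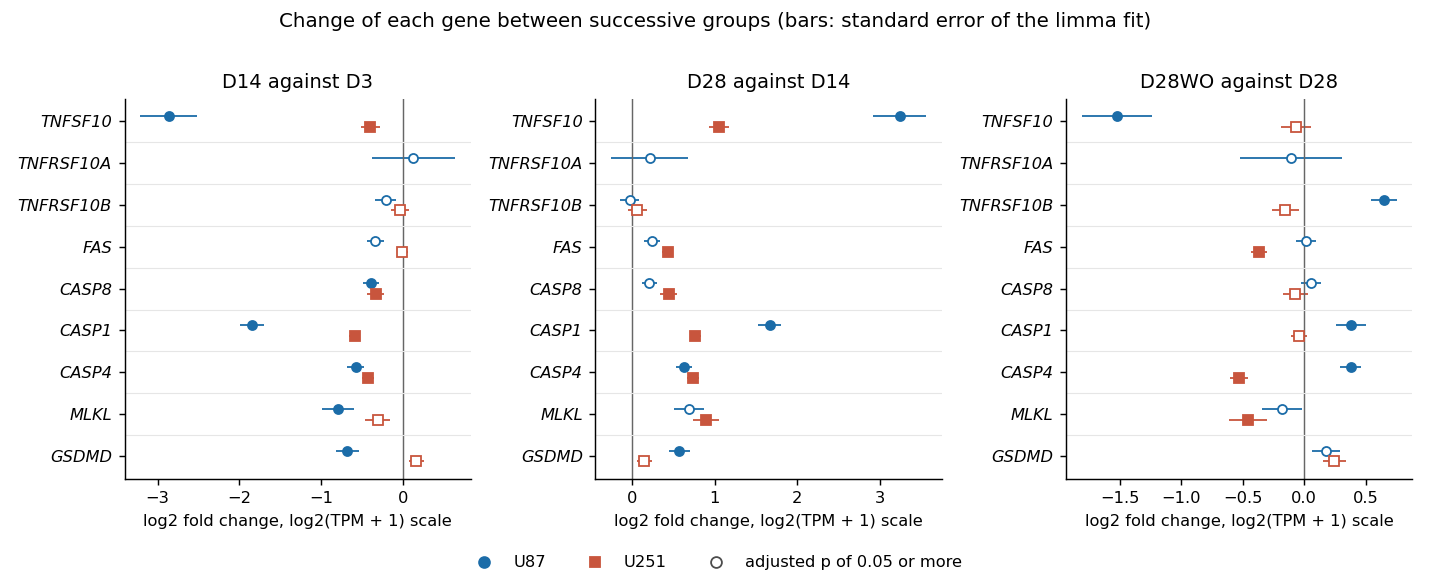
Change of each gene between groups (log2(TPM + 1) scale) for D14 against D3, D28 against D14 and D28WO against D28 (left to right) in U87 (blue circles) and U251 (red squares), with bars for the standard error. Filled symbols passed (adjusted p under 0.05). CASP4 at D28WO against D28 lies at 0.38 in U87 and −0.53 in U251.

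The rest of each pathway was read from lists of related genes, whose counts at D3, D14, D28 and D28WO stand against the shares of all tested genes that were higher (12.4%, 4.14%, 17.2% and 28.6% in U87, 24.9%, 13.8%, 25.9% and 14.3% in U251) and lower (4.28%, 1.02%, 6.55% and 13.4% in U87, 16.0%, 7.31%, 14.7% and 13.4% in U251). Of the adaptors and brakes of the receptor complex, all 10 tested, 5, 1, 6 and 5 rose at D3, D14, D28 and D28WO of U87 with 0, 0, 1 and 2 lower (median change 0.37, 0.11, 0.33 and 0.39), and 4, 3, 7 and 4 rose in U251 with 1, 0, 0 and 1 lower (0.19, 0.15, 0.28 and 0.26). TNFAIP3 (A20), an NF-κB and cell death brake, rose by 1.72 at D28 of U87 and 1.66 of U251 (limma, adjusted p = 4.71e-07 and 5.42e-08). BIRC3 (cIAP2), a ubiquitin ligase of the complex, rose by 0.68 and 0.31 there (0.0018 and 0.00529), and at D28WO it was higher in U87 (1.18, 1.34e-05) and lower in U251 (−0.35, 0.00319). CYLD, a deubiquitinase, rose at D28 by 0.56 and 0.62 (4.25e-05 and 9.09e-06). Of 9 other ligands and receptors, 8 were tested in U87 with 1, 0, 1 and 2 higher and 2, 2, 1 and 3 lower (median 0.13, −0.12, −0.19 and −0.064), and 6 in U251 with 4, 1, 3 and 3 higher and 1, 0, 1 and 0 lower (0.72, 0.031, 0.80 and 0.63). TNFRSF21 (DR6) rose by 2.64 at D28 of U251 (6.83e-11) and stood at −0.18 in U87 (0.108). TNFRSF1B (TNFR2) rose by 0.86 and 1.38 at D28 of U87 and U251 (0.00167 and 0.00192), and TNFRSF11B (osteoprotegerin), a soluble receptor that binds TRAIL, rose by 1.13 in U251 (0.00102) and stood at −0.53 in U87 (0.196), where it was lower at D14 and D28WO (−1.21 and −0.92, 0.0466 and 0.019). TNF, the ligand that starts this receptor family's signalling through TNFRSF1A, reached at most 2.52 TPM in U87 and 0.889 TPM in U251.

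Downstream of caspase-8, of 17 tested apoptotic caspase and BCL2 family genes, 4, 1, 5 and 6 rose and 0, 1, 2 and 3 fell in U87 (median 0.16, −0.016, 0.063 and 0.11), and 7, 4, 7 and 6 rose and 5, 0, 2 and 0 fell in U251 (0.18, 0.16, 0.24 and 0.042). These counts stand against the shares of all tested genes given for the lists above. PMAIP1 (NOXA), a BH3-only killer, rose by 0.96 and 1.18 at D28 of U87 and U251 (limma, adjusted p = 5.7e-05 and 1.63e-09). BBC3 (PUMA), another BH3-only gene, rose by 1.03 in U87 (9.89e-05) and stood at −0.0082 in U251 (0.987), and BAK1, which permeabilizes mitochondria, rose by 0.44 and 0.59 (0.0218 and 0.000254).

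Of the inflammasome genes that passed the filter, 8 of 11 rose at D28 of U251 and 11 of 12 at D28WO of U87, where 25.9% and 28.6% of all genes did. In U251 NLRP3 and MEFV passed the filter on low values only through D28, so neither adds independent support to the 8 of 11. NLRP3 averaged 1.44 TPM at D28 of U251, and its highest mean in the other groups was 0.869 TPM, at D3. In U87 12 of 16 were tested and 6, 1, 6 and 11 rose with 0, 2, 0 and 0 lower (median 0.58, −0.092, 0.41 and 0.99), and in U251 11 were tested and 5, 4, 8 and 4 rose with 1 lower in each group (0.61, 0.55, 0.98 and 0.32). PYCARD (ASC), the adaptor that carries caspase-1 to most sensors, held 15.4 to 19.6 TPM in Untreated U87, 5.15 and 5.34 at D14 and 33.8 to 38.8 at D28WO. It was lower at D14 (−1.58) and higher at D28WO (0.98) than in Untreated (limma, adjusted p = 0.00197 and 0.00055). In U251 PYCARD was listed at 0 in 12 of 15 libraries, did not exceed 0.556 TPM and was not tested. AIM2, a sensor of cytosolic DNA, rose from 57.3 to 62.9 TPM in Untreated U87 to 117 to 127 at D28 (1.03, 9.57e-06). In U251 it went from at most 0.197 TPM to 25.6 to 34.1 TPM at D28 (4.77, 5.37e-08) and back to 1.47 to 3.50 at D28WO, lower than D28 by −3.16 (8.89e-06).

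Of the substrates of caspase-1, IL1B was abundant in U87 and IL18 in U251. IL1B held 205 to 224 TPM in Untreated U87, 375 and 475 at D3 and 505 to 607 at D28WO, with rises of 0.98 and 1.34 (limma, adjusted p = 0.00019 and 2.2e-06), while the 0.19 at D28 did not pass (0.193). In U251 IL1B did not exceed 9.04 TPM. IL18 held 152 to 155 TPM in Untreated U251 and fell in all 4 groups, by 0.40, 0.35, 0.22 and 0.93 on the log2 scale (0.000169, 0.00128, 0.0113 and 8.12e-08), and did not exceed 1.52 TPM in U87. NLRP3 held 13.2 to 19.2 TPM in Untreated U87 and rose by 0.90, 0.54 and 0.89 at D3, D28 and D28WO (0.00577, 0.0287 and 0.000834). It did not exceed 1.68 TPM in U251. IL1A, which encodes IL-1α, rose by 0.75 at D28 and 2.83 at D28WO of U87 (0.00537 and 1.68e-07) and by 1.23 at D28 of U251 (0.00016). The sensor NLRP1 rose by 1.64 at D28 of U251 (0.013) and stood at 0.29 in U87 (0.137), and MEFV (pyrin), at 2.06 TPM or less in Untreated and D28, rose by 1.08 and 0.84 at D28 of U87 and U251 (0.021 and 0.0162). In U251 MEFV passed the filter on low values only through D28, so its call there is no independent support for a rise. It averaged 0.197, 0.846, 0.302 and 0.534 TPM in Untreated, D3, D14 and D28WO of U251 and 1.16 at D28.

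**Figure D4:**
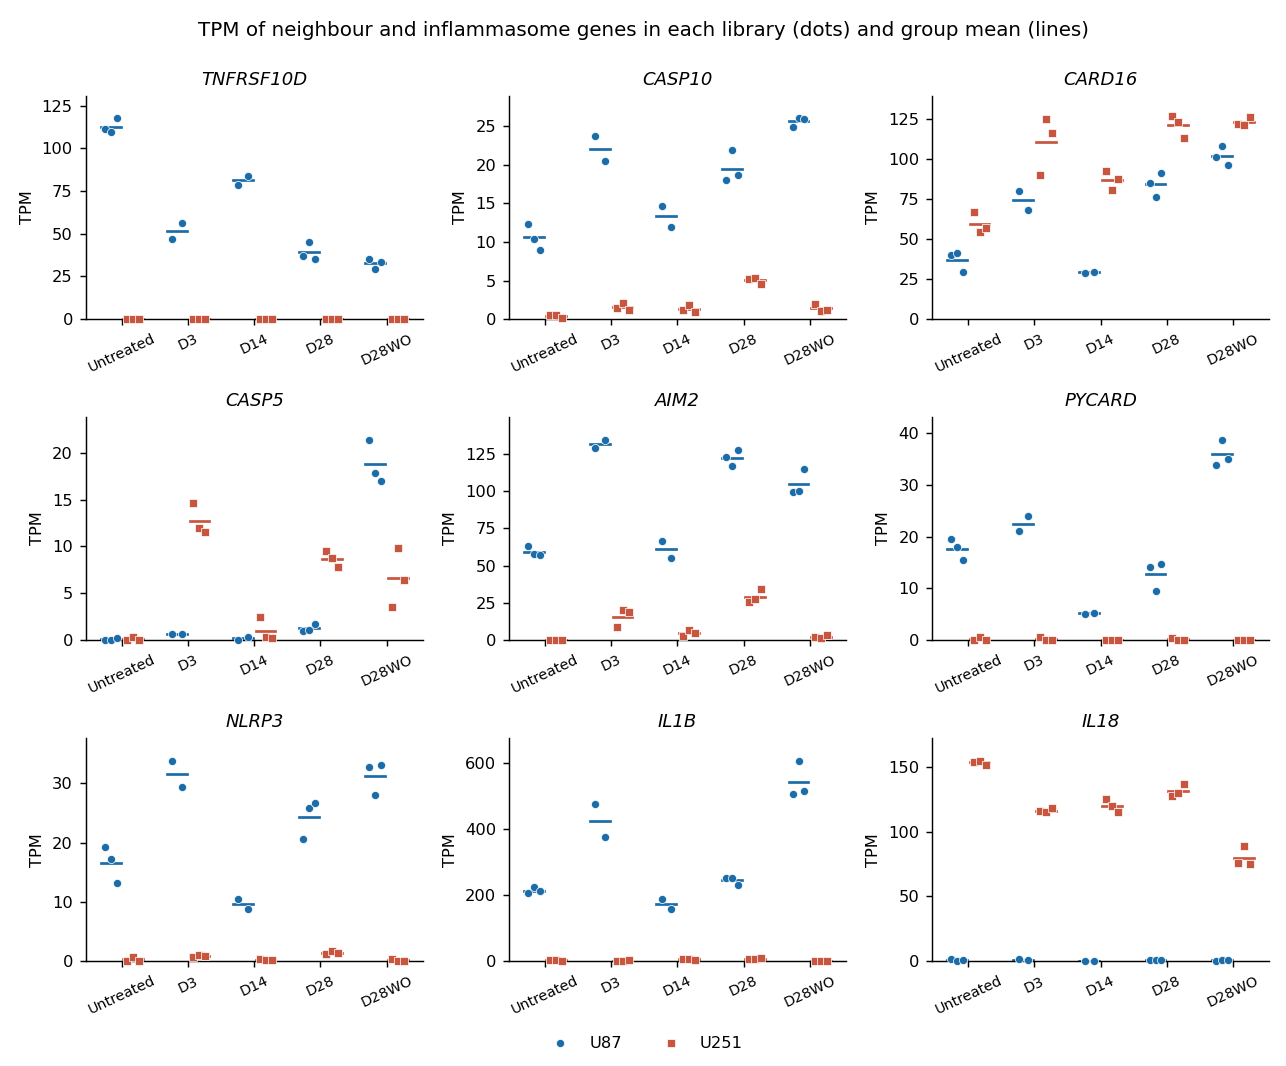
TPM of 9 related genes (vertical axes, 1 panel a gene) in each library of U87 (blue circles) and U251 (red squares) over the 5 groups, with short lines at the group means. TNFRSF10D of U87 drops from 113 TPM in Untreated to 32.8 at D28WO, and PYCARD and NLRP3 lie near 0 in U251.

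Of all tested genes, 12.4%, 4.14%, 17.2% and 28.6% were higher at D3, D14, D28 and D28WO of U87 and 24.9%, 13.8%, 25.9% and 14.3% in U251. Lower genes made up 4.28%, 1.02%, 6.55% and 13.4% in U87. Of the necroptosis genes besides MLKL, 4 of 5 were tested in each line, with 2, 0, 3 and 2 higher and 0, 0, 0 and 1 lower in U87 (median 0.63, 0.17, 1.04 and 0.91) and 3, 1, 3 and 3 higher and none lower in U251 (1.21, 0.60, 1.51 and 1.37). Of the other gasdermins and NINJ1, which ruptures the membrane after pores form, 5 of 6 were tested, with 2, 0, 3 and 4 higher in U87 (median 0.80, 0.73, 0.67 and 0.88), 2, 0, 3 and 3 higher in U251 (0.12, 0.066, 0.57 and 0.24) and none lower. GSDMC went from 0.302 TPM in Untreated U251 to 7.14 at D28 (2.60, limma, adjusted p = 3.17e-06) and 1.55 at D28WO (0.98, 0.013), and was not tested in U87. GSDMB rose at D28 by 1.53 in U251 (0.000154) and by 1.32 in U87 (0.0476), where its libraries at D28 (3.93 to 15.7 TPM) overlapped with Untreated (1.56 to 4.11 TPM). PJVK rose by 1.37 at D28 of U87 (0.0265) and stood at 0.57 in U251 (0.173). GSDME, another pore former, rose by 0.50, 0.55 and 0.88 at D3, D28 and D28WO of U87 (limma, adjusted p = 0.00466, 0.000852 and 1.05e-05) and by 0.34 at D28 of U251 (0.0134). NINJ1 rose at D28WO, by 0.55 in U87 and 0.24 in U251 (9.17e-05 and 0.0182).

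The gene whose log2(TPM + 1) followed each member most closely was named by Pearson's r over the 13 U87 or 15 U251 libraries, as a description, since all genes share the group structure and the libraries. In U87 it was CMPK2 for TNFSF10 (0.989), SAA2 for CASP1 (0.992), KLHDC7B for CASP4 (0.984), SLC30A4-AS1 for GSDMD (0.984), IL36RN for CASP8 (0.966), THAP2 for TNFRSF10B (0.962), LINC02384 for FAS (0.93), SOAT1 for MLKL (0.92) and C2orf74-DT for TNFRSF10A (0.848). In U251 it was ETV7 for CASP1 (0.996), LRATD1 for TNFSF10 (0.979), LHFPL1 for CASP4 (0.975), ENTREP3 for MLKL (0.968), ENSG00000255330 for CASP8 (0.954), PLA1A for FAS (0.951), ZNF524 for GSDMD (0.915) and ENSG00000288752 for TNFRSF10B (0.821). None of the 8 members tested in both lines had the same nearest gene in each.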

How the data were processed

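RNA of 2 glioblastoma cell lines was sequenced (RNeasy extraction, TruSeq libraries, paired-end Illumina reads). The authors trimmed reads with Trim Galore, aligned them to GRCh38 with STAR and counted genes with featureCounts. Their deposited tables hold TPM per gene and library, and how TPM was computed from the counts was not given in the sources used here. Here log2(TPM + 1) was fitted with limma 3.58.1 in R 4.3.3 (trend on mean expression), all 5 groups of a line in one fit, over genes that averaged 0.5 TPM or more, and p-values were adjusted by Benjamini-Hochberg over all genes tested in each comparison. Changes are on that scale, which understates low genes. The 2 U87 columns that share a name were not used. Figures and descriptions were made in Python 3.11.15. Gene positions and exon overlaps are from GENCODE on GRCh38. The genes and lists were chosen with earlier results of these data known. Of the lists, the text names genes that share a locus or complex with a member and up to 3 more a list with the largest change at D28 in either line, plus, for each member, the tested gene with the highest correlation in a line; a few of these are not reported here. Alternatives were a pseudocount of 0.1, no filter, a mean of 1 TPM or more, quantile normalization, size factors by median ratio, fits of only the 2 groups compared, a block for replicate number, limma array weights, an added limit of 1 on the log2 change, and leaving out each library. The fit was tested on simulated data with known changes.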

Additional observations from a re-analysis of the deposited data

Results flagged for a closer look

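CASP4 at D28WO differed from the continuously exposed D28 in opposite directions in the lines. At D28WO against D28 its log2 change was 0.38 in U87 and −0.53 in U251. Every U87 washout library (192 to 200.02 TPM) lay above every D28 library (147 to 153 TPM), and every U251 washout library (147 to 152 TPM) lay below every D28 library (206 to 223 TPM). The U87 call was lost with size factors (0.33, limma, adjusted p = 0.0619). Against D14, the last group before withdrawal, every D28WO library lay above in both lines (1.01, adjusted p = 2.36e-05, in U87 and 0.20, 0.0572, in U251, which passed with size factors, with only the 2 groups compared and with array weights, at 0.0332, 0.0164 and 0.0272). The difference between the lines was not tested, since their tables were normalized separately.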

How the results depend on the processing

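Of 76 called member changes, 58 kept direction and call under every alternative that was applied to single genes (the limit on the log2 change was applied to counts), and of 60 uncalled ones 18 did. With the added limit of 1 on the log2 change, members higher against Untreated numbered 3 at D3 and 2 at D28 of U87, and 2, 1 and 3 at D3, D14 and D28WO of U251. Under that limit, U87 had 2 members lower at D14 than D3, 2 higher at D28 than D14, 0 higher at D28WO than D28 and 3 higher at D28WO than D14, and U251 had 0, 1, 0 (lower at D28WO than D28) and 0. With only the 2 groups compared, U87 had 2 lower at D14 than D3 and 2 higher at D28 than D14, and U251 had 1, GSDMD, higher at D28WO than D28, as also with size factors and array weights (1 each). Size factors left 1 higher at D28WO than D28 of U87, and array weights called 8 higher at D28WO than D14. Changes that turned sign were all uncalled, and the cause was not tested. With quantile normalization, in U87, TNFRSF10A gave −0.24, −0.15 and −0.34 at D14, D28 and D28WO against Untreated and −0.097 at D28WO against D14, TNFRSF10B gave 0.024 at D28, FAS gave −0.021 at D28WO against D28, and in U251 TNFRSF10B gave −0.029 at D14. With size factors, in U87, TNFRSF10A, TNFRSF10B, CASP8 and CASP4 gave −0.027, −0.16, −0.0092 and −0.10 at D14, and FAS gave −0.026 at D28WO against Untreated and −0.028 against D28. With size factors, in U251, TNFRSF10B gave −0.069, −0.088 and −0.052 at D3, D14 and D28, GSDMD gave −0.00050 at D14, FAS gave 0.0086 at D14 against D3, and TNFSF10, CASP8 and CASP1 gave 0.021, 0.016 and 0.046 at D28WO against D28. With array weights TNFRSF10B of U87 gave 0.039 at D28 against Untreated and 0.0064 against D14, FAS gave −0.0058 at D28WO against D28, and GSDMD of U251 gave 0.0046 at D3.

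The replicate numbers did not pair the samples: same-numbered libraries of different groups had deviations that correlated at −0.0375 to 0.048 over 30 pairs in U251 and −0.058 to 0.0472 over 23 in U87. With the replicate block, TNFRSF10A and TNFRSF10B of U87 gave −0.030 and −0.034 at D14 against Untreated and TNFRSF10B gave 0.026 at D28 against D14. The block took the adjusted p of CASP8 and MLKL at D14 against D3 of U87 to 0.0805 and 0.0781, which left 4 of 6 lower calls, that of CASP1 at D28WO against D28 of U87 to 0.0693 and that of FAS at D28WO against Untreated of U251 to 0.0661, while FAS at D28WO against D14 of U87 passed (0.0482). No count of members moved by over 1.5 times under it.

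Leaving out 1 library of a comparison at a time, which left some U87 groups with 1 library assumed to vary like the others, gave these ranges. In U87 TNFRSF10A ran from −0.47 to 0.44 at D3, −0.26 to 0.50 at D14, −0.022 to 0.60 at D28 and −0.13 to 0.52 at D28WO against Untreated, from −0.32 to 0.59 at D14 against D3, −0.17 to 0.59 at D28 against D14, −0.44 to 0.19 at D28WO against D28 and −0.27 to 0.48 at D28WO against D14. At D14 of U87 against Untreated, TNFRSF10B ran from −0.025 to 0.067, FAS from −0.092 to 0.030, CASP1 from −0.16 to 0.070, CASP4 from −0.084 to 0.24 and MLKL from −0.30 to 0.084. TNFRSF10B of U87 ran from −0.11 to 0.13 at D28 against Untreated and −0.13 to 0.11 against D14, and FAS from −0.028 to 0.069 at D28WO against D28. In U251 TNFRSF10B ran from −0.066 to 0.17 at D3, −0.055 to 0.040 at D14 and −0.16 to 0.071 at D14 against D3, GSDMD from −0.18 to 0.046 at D3, and FAS from −0.042 to 0.054 at D14 against D3. Members lower at D14 than D3 numbered 2 to 4 in U87 and 2 to 3 in U251, and members higher there numbered 0 to 1 in U251. Depth is unknown for TPM, so low genes such as TNFRSF10A have no counting error to set beside these ranges.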
